A study of Sus scrofa with 24 samples.

Results

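Integrins and the proteins of focal adhesions were followed through 4 treatments of meniscus cells. Of 35 listed genes of cell-matrix adhesion, 32 were found in the table of counts under their symbol with 10 or more reads in at least 1 library, among 13653 genes that reached the same minimum. These 32 are 12 integrin alpha subunits, 4 integrin beta subunits and 16 cytoplasmic proteins. They were listed by name and function, not by measured values, though earlier results of these data were known. The other 3 listed genes, TNS1, TNS3 and FLNA, are in the counts under an identifier with no symbol and are described apart from the rest.

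Messenger RNA was sequenced from cells isolated from the medial menisci, cushions of fibrocartilage in the knee, of female, skeletally mature pigs. The 24 libraries form 8 groups of 3: cells of the inner zone, the cartilage-like rim (replicates 1 to 3), and cells of the outer zone, the fibrous and partly vascular remainder (replicates 4 to 6), each left at rest, stretched, given IL-1α, or stretched with IL-1α. They are called inner cells and outer cells here. Wells had received 250000 cells about 40 h earlier. Stretch was a single bout of 5% equibiaxial cyclic strain at 0.5 Hz for 4 h, and IL-1α, an inflammatory cytokine of injured joints called IL-1 here, was given at 0.1 ng/mL in the fresh medium of that bout. Cells of all groups had been expanded for a passage in serum and sat on flexible membranes coated with type I collagen, itself an integrin ligand, and RNA was taken as soon as the bout ended. Since cells of at least 3 menisci were pooled, the p-values reflect how wells of pooled cells vary, not how animals do. The library titles carry a code that is the same for all libraries of a treatment, so whatever it marks cannot be told apart from the treatment.

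Libraries held 25377054 to 35284474 reads counted in genes. The 10 fibroblast-like markers, COL1A1 and COL3A1 among them, summed to 82400 to 108000 CPM (counts of a gene scaled to the size of the library) in every group. The chondrocyte-like markers (9 of 10 detected, led by COL11A1) summed to 2250 to 2980 CPM in inner and 1250 to 1600 CPM in outer zone libraries. Over all libraries COL11A1 had a mean of 1290 CPM, beside 320 CPM for ACAN, 227 CPM for COMP and 21.3 CPM for COL2A1. Mural and smooth muscle markers (8 of 9 detected, led by ACTA2 and TAGLN) summed to 2560 to 3220 CPM in inner and 1490 to 2260 CPM in outer zone libraries. Leukocyte markers (6 of 8 detected, led by CD14) summed to 19.5 to 33 and 36.7 to 60.2 CPM, while PTPRC and CD3E, which define leukocytes and T cells, had at most 1 read in a library. Endothelial markers summed to 53.5 to 61.9 and 47.7 to 52.3 CPM through ERG and PECAM1, with at most 5 reads of VWF and 4 of CDH5 and KDR, and no adipocyte marker reached 10 reads. In bulk RNA such as this, fewer cells of a type and less RNA per cell cannot be told apart.

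An integrin is a pair of an alpha and a beta subunit that spans the membrane and binds matrix outside the cell. The alpha subunit largely sets the ligand: ITGA1, ITGA2, ITGA10 and ITGA11 bind collagens, ITGA3, ITGA6 and ITGA7 bind laminins, and ITGA5, ITGA8 and ITGAV bind the RGD motif of fibronectin, vitronectin and related proteins. ITGB1 pairs with all of these, whereas ITGB3, ITGB5 and ITGB8 pair with ITGAV, and ITGAV pairs with ITGB8 are known for releasing active TGF-β from its latent complex. Inside the cell, talins (TLN1, TLN2) and kindlin-2 (FERMT2) bind the beta tail and switch the integrin on. The ILK, PINCH (LIMS1, LIMS2) and parvin complex and vinculin (VCL), zyxin (ZYX) and VASP join it to actin, and the kinases FAK (PTK2) and SRC act with the scaffolds paxillin (PXN) and BCAR1 to signal from the site. Focal adhesions are where cultured cells feel the stretch of the membrane they sit on.

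The sequences just upstream of 5 genes are shown because 4 of them, ITGA5, ITGAV, ITGB3 and ITGB8, rose most with IL-1 and the other, VCL, fell with IL-1 and with stretch and holds a match to the CArG box, the site of serum response factor. Each run is the 250 bases before the start of the gene in the RefSeq annotation of Sscrofa11.1, 5′ to 3′ on the strand of the gene, with matches to the NF-kB, CArG and AP-1 motifs in capitals. The windows are chr5:19610581-19610830 (minus strand) for ITGA5, chr15:91604416-91604665 (plus strand) for ITGAV, chr12:16752229-16752478 (minus strand) for ITGB3, chr9:89341995-89342244 (plus strand) for ITGB8 and chr14:76699893-76700142 (plus strand) for VCL.
ITGA5: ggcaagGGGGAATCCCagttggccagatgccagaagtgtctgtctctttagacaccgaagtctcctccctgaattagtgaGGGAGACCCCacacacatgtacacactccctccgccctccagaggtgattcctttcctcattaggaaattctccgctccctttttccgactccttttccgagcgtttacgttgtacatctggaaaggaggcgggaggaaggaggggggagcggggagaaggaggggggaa
ITGAV: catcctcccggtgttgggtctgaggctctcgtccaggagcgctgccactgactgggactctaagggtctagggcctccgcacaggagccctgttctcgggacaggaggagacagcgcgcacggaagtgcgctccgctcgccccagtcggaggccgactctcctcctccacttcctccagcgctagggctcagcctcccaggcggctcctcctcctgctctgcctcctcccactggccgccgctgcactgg
ITGB3: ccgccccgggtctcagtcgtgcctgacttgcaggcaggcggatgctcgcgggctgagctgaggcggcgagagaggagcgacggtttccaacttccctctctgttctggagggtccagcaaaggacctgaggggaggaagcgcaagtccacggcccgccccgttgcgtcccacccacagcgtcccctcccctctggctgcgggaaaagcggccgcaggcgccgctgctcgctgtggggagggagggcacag
ITGB8: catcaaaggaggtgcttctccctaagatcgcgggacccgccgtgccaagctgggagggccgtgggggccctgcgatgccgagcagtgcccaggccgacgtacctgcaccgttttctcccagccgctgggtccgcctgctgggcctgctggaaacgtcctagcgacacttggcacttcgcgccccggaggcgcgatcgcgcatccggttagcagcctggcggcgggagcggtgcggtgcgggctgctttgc
VCL: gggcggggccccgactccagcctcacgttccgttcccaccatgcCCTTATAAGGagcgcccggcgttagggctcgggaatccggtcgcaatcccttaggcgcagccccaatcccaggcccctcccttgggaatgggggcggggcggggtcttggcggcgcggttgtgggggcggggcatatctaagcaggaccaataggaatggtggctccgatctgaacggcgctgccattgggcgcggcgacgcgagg
Both strands were searched for the consensus motifs of NF-kB and of the CArG box and for the AP-1 motif (TGANTCA). The ITGA5 window holds NF-kB matches 244 to 235 and 170 to 161 bases upstream, and the match in the VCL window lies 206 to 197 bases upstream. Of all 19556 windows, 5.91% held an NF-kB match, 1.31% a CArG match and 5.27% an AP-1 match. Of the 35 listed genes, 4 held an NF-kB match (ITGA2, ITGA5, TLN1 and PXN), 1 a CArG match (VCL) and 1 an AP-1 match (ZYX). The windows of ITGAV, ITGB3 and ITGB8 held no match.

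IL-1 raised a small set of integrin subunits severalfold, while the share of adhesion genes that moved was near that of all genes. In inner cells at rest, ITGB8 rose 5.22-fold, ITGB3 4.56-fold, ITGAV 2.29-fold and ITGA5 2.10-fold, and these were the 4 members past a fold of 2. In outer cells ITGB3 rose 4.08-fold, ITGB8 3.19-fold and ITGAV 2.65-fold, and LIMS2 fell by a fold of 2.05. The kindlin FERMT2, vinculin, VASP and BCAR1 fell in both zones. In inner cells 12 members rose, 7 fell and 13 did not pass an adjusted p of 0.05 (edgeR quasi-likelihood test, adjusted over 13653 genes), which is 59.4% of members against 65.4% of all genes tested (32.6% up and 32.8% down). In outer cells 9 rose, 13 fell and 10 did not pass, 68.8% of members against 64.6% (31.1% up and 33.5% down). Past a fold of 2, the background was 15.7% of genes in inner and 15.4% in outer cells. The median log2 difference of the members was 0.04 in inner and -0.03 in outer cells, beside -0.03 and -0.04 for all genes.

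How many members rose or fell depended on the scaling of the libraries. The TMM factors, which scale for composition, ran from 1.04 to 1.12 without and from 0.881 to 0.968 with IL-1. With upper-quartile scaling the median of all genes moved to -0.20 in inner and -0.22 in outer cells, and the members split into 8 that rose and 16 that fell in inner, and 7 and 20 in outer cells. Under the same scaling 9566 of all genes passed in inner and 9717 in outer cells, of which 31% and 29.6% rose, against 49.9% and 48.1% of those that passed with TMM scaling. Changes of 0.2 or less on the log2 scale are therefore given here as values under TMM scaling only. Under upper-quartile scaling ITGA8 moved from 0.13 to -0.051 in inner cells, and in outer cells from 0.09 to -0.092, and ZYX from 0.15 to -0.026 in inner cells.

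Among the beta subunits, ITGB8 (ENSSSCG00000015375, chr9:89342245-89450701, plus strand) held 38.1, 39.7 and 41.6 CPM in the 3 inner libraries at rest and 192, 206 and 225 CPM with IL-1, a log2 difference, here and throughout ± its SE, of 2.38 ± 0.07 (adjusted p = 3.64e-20). In outer cells its level was 40.2, 37.5 and 35.7 CPM at rest and 115, 117 and 129.8 CPM with IL-1, a log2 difference of 1.68 ± 0.07 (adjusted p = 7.27e-17). At rest the zones overlapped, and with IL-1 every inner library lay above every outer one. ITGB3 (ENSSSCG00000017306, chr12:16694466-16752228, minus strand), the beta subunit of the vitronectin receptor, went from 20.4, 20.1 and 22.6 CPM to 98.97, 95.2 and 93.3 CPM in inner cells, a log2 difference of 2.19 ± 0.06 (adjusted p = 2.22e-26). In outer cells ITGB3 went from 20.1, 22.2 and 21.1 CPM to 89.04, 86.5 and 83.7 CPM (2.03 ± 0.06, adjusted p = 2.76e-25). ITGB1, the common partner of the collagen, laminin and fibronectin receptors, rose by a much smaller 0.26 ± 0.04 in inner and 0.29 ± 0.04 in outer cells (adjusted p = 7.73e-08 and 6.79e-09). ITGB5 stood at 0.19 ± 0.12 and 0.25 ± 0.11 and passed in neither zone (adjusted p = 0.186 and 0.0542).

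**Figure D1:**
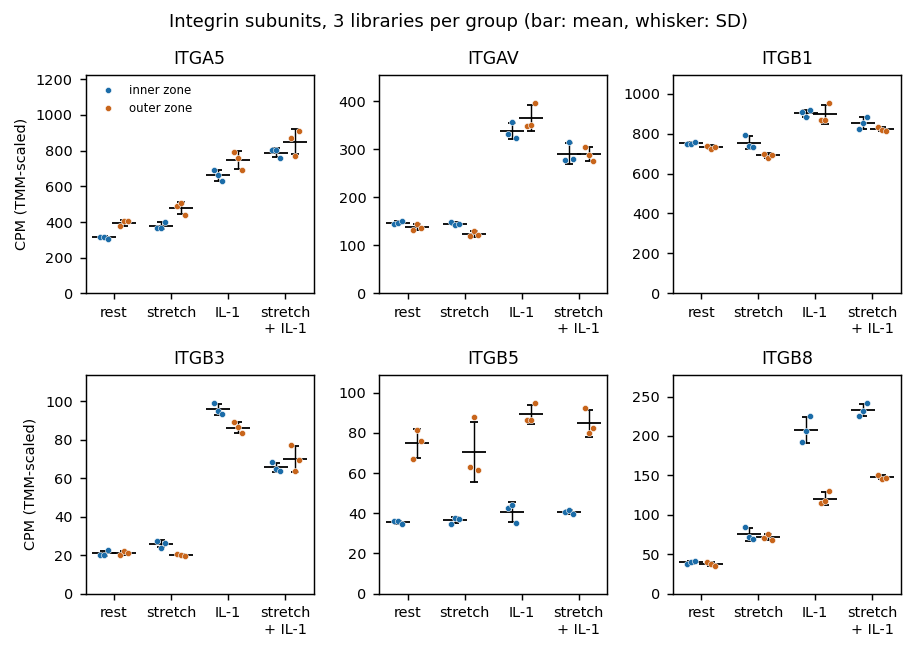
CPM of 6 integrin genes in each of 24 libraries (points, 3 per group), by treatment on the horizontal axis and zone by colour, with the mean (bar) and SD (whisker). ITGA5, ITGAV, ITGB3 and ITGB8 lie higher in every library with IL-1 than in any without, and ITGB5 lies higher in outer than in inner zone libraries.

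The RGD-binding alpha subunits that pair with these beta subunits rose too. ITGAV (ENSSSCG00000016027, chr15:91604666-91711843, plus strand) went from 145, 147 and 151 CPM to 332, 357 and 324 CPM in inner cells (1.20 ± 0.05, adjusted p = 1.12e-18). In outer cells its libraries held 132, 144 and 137 CPM at rest and 347, 349 and 396 CPM with IL-1 (1.40 ± 0.05, adjusted p = 2.15e-20). ITGA5 (ENSSSCG00000000293, chr5:19587361-19610580, minus strand), the fibronectin receptor subunit, went from 318, 317 and 307 CPM to 692, 662 and 631 CPM in inner cells (1.07 ± 0.06, adjusted p = 6.05e-14). Outer zone libraries held 377, 404 and 405 CPM of ITGA5 at rest and 790.5, 760.0 and 689.9 CPM with IL-1 (0.92 ± 0.06, adjusted p = 1.17e-12). For both genes and both zones all IL-1 libraries lay above all libraries at rest, a separation seen in either direction in 70.3% of all genes in inner and 68.2% in outer cells. An annotated pseudogene on the opposite strand covers 12.4% of the exon bases of ITGAV.

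The laminin and collagen receptors moved less. ITGA3, a laminin receptor subunit, held 16.5, 15.2 and 16.1 CPM at rest and 26.1, 22.2 and 27.6 CPM with IL-1 in inner cells (0.67 ± 0.09, adjusted p = 2.51e-08) and 6.35, 6.18 and 6.09 against 7.61, 8.49 and 6.35 CPM in outer cells (0.26 ± 0.12, adjusted p = 0.0453). The outer libraries of ITGA3 overlapped, its call there was lost in 8 of 24 refits that each left out 1 library (0.16 to 0.37), and upper-quartile scaling gave 0.08. ITGA10, a collagen receptor subunit of cartilage cells, fell from 37.02, 35.5 and 35.7 CPM to 28.5, 30.8 and 29.1 CPM in inner (-0.29 ± 0.07, adjusted p = 0.000242) and from 28.7, 32.2 and 29.4 to 21.5, 20.6 and 20.9 CPM in outer cells (-0.52 ± 0.07, adjusted p = 5.91e-08). ITGA11, the collagen receptor subunit of fibroblasts, fell by 0.22 on the log2 scale in outer cells (adjusted p = 0.00698) and stood at -0.16 ± 0.07 in inner cells (adjusted p = 0.0556). The ITGA11 call was lost without outer IL-1 replicate 5, with a log2 difference of -0.17. ITGA4, a subunit known from leukocytes that binds VCAM1 and fibronectin, held 1.46, 1.41 and 1.04 CPM at rest and 0.631, 1.01 and 1.06 CPM with IL-1 in inner cells (-0.51 ± 0.21, adjusted p = 0.0322). The ITGA4 call was lost without any 1 of inner rest replicate 1, inner rest replicate 2 or inner IL-1 replicate 1, with log2 differences of -0.45 to -0.32. ITGA7, the laminin receptor subunit of muscle, rose by 0.27 ± 0.11 in inner cells, a call lost under DESeq2. The ITGA7 call was lost without any 1 of inner stretch plus IL-1 replicate 3, inner rest replicate 1, inner rest replicate 2, inner IL-1 replicate 1 or inner IL-1 replicate 3, with log2 differences of 0.23 to 0.26. ITGA9 fell in outer cells, a call kept in all 24 refits that each left out 1 library (-0.32 to -0.21), and did not pass in inner cells. ITGA1 and ITGA6 passed in neither zone, at -0.07 ± 0.06 and 0.11 ± 0.05 in inner cells.

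Of the 16 cytoplasmic members, 4 rose and 5 fell in inner and 2 rose and 10 fell in outer cells, 56.2% and 75% of them against 65.4% and 64.6% of all genes (32.8% and 33.5% down). FERMT2 (ENSSSCG00000005041, chr1:182519681-182606890, minus strand), the kindlin that activates integrins, fell from 204, 199.9 and 201 CPM to 129, 127 and 137 CPM in inner (-0.63 ± 0.04, adjusted p = 1.27e-15) and from 225, 226 and 231 to 142, 145 and 153 CPM in outer cells (-0.63 ± 0.04, adjusted p = 7.5e-16). VCL (ENSSSCG00000010313, chr14:76700143-76811875, plus strand), the adaptor recruited to talin under force, fell from 690.1, 663 and 662 CPM to 544, 526 and 550.2 CPM in inner (-0.31 ± 0.04, adjusted p = 2.38e-08) and from 553, 542 and 576 to 383, 355 and 359 CPM in outer cells (-0.61 ± 0.04, adjusted p = 3.22e-15). In both genes and both zones no IL-1 library reached the lowest library at rest. LIMS2, a PINCH protein with few reads, held 7.14, 7.19 and 6.70 CPM at rest and 4.93, 4.08 and 4.51 CPM with IL-1 in inner cells (-0.64 ± 0.13, adjusted p = 7.07e-05). In outer cells LIMS2 fell from 3.65, 3.35 and 3.69 to 1.82, 2.26 and 1.19 CPM (-1.04 ± 0.18, adjusted p = 3.6e-06). Its relative LIMS1 is the more abundant PINCH gene per kilobase and stood at 0.23 ± 0.04 in inner and 0.05 ± 0.04 in outer cells, where only the inner value passed (adjusted p = 2.39e-05 and 0.341) and not under upper-quartile scaling (0.05). VASP, which promotes actin filament growth, fell from 178, 171 and 170.1 to 149, 137 and 145 CPM in inner (-0.27 ± 0.04) and from 149, 157 and 153 to 120.4, 115 and 109 CPM in outer cells (-0.41 ± 0.04). BCAR1, also called p130Cas, a scaffold that is phosphorylated by SRC when it is stretched, fell from 92.6, 91.7 and 87.99 to 76.2, 67.3 and 73.5 CPM in inner (-0.33 ± 0.06) and from 86.5, 87.4 and 89.6 to 69.4, 65.7 and 59.4 CPM in outer cells (-0.44 ± 0.06).

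CAV1 and SRC moved the other way. CAV1 (ENSSSCG00000016634, chr18:29648120-29682451, minus strand), the coat protein of caveolae, rose from 458, 465 and 452 CPM to 682, 673 and 735 CPM in inner (0.60 ± 0.05, adjusted p = 2.16e-13) and from 324, 318 and 318 to 524, 543 and 561 CPM in outer cells (0.76 ± 0.05, adjusted p = 6e-16). SRC, the kinase that joins FAK at adhesions, rose from 42.9, 40.7 and 40.9 to 57.8, 55.4 and 54.00 CPM in inner (0.42 ± 0.05, adjusted p = 1.74e-09) and from 44.2, 45.9 and 48.7 to 57.6, 57.8 and 57.3 CPM in outer cells (0.32 ± 0.05, adjusted p = 5.98e-07). PTK2, PARVA and the main talin TLN1 stayed between -0.10 and 0.05 in both zones, of which TLN1 in outer cells passed (adjusted p = 0.0196) and lost its call under DESeq2. The TLN1 call was lost without any 1 of inner stretch plus IL-1 replicate 3, outer rest replicate 4, outer rest replicate 6, outer IL-1 replicate 5 or outer IL-1 replicate 6, with log2 differences of -0.09 to -0.06. In outer but not in inner cells PXN (-0.31 ± 0.07), ILK (-0.15 ± 0.04) and TLN2 (-0.53 ± 0.08) also passed. They stood at -0.08 ± 0.07, -0.03 ± 0.04 and -0.06 ± 0.08 in inner cells. Of these only the TLN2 difference between zones passed its own test, given below with the zones. PARVB fell in outer cells and did not pass in inner cells. Its outer call was lost in 3 of 24 refits that each left out 1 library (-0.25 to -0.14). The mural, chondrocyte-like and leukocyte marker sums moved with IL-1 as well, with no overlap between the groups. The mural sum was 2920 to 3220 CPM at rest against 2560 to 2670 CPM with IL-1 in inner libraries (6 of 8 markers fell and 1 rose). In outer libraries it was 2170 to 2200 against 1490 to 1670 CPM (4 fell and 2 rose). The chondrocyte-like sum was 2840 to 2980 against 2250 to 2480 CPM in inner libraries (5 of 9 markers fell and 1 rose), and 1470 to 1600 against 1270 to 1350 CPM in outer ones (4 fell and 1 rose). The leukocyte sum was higher with IL-1, at 19.5 to 20.2 against 27.1 to 33 CPM and 36.7 to 40.5 against 56.6 to 60.2 CPM. Of its 6 markers 2 rose in inner and 1 in outer cells, and none fell. Of all genes 65.4% passed in inner and 64.6% in outer cells. The part of these marker sums in the changes of the members, such as the falls of VCL, FERMT2, VASP and ITGA10, was not tested.

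**Figure D2:**
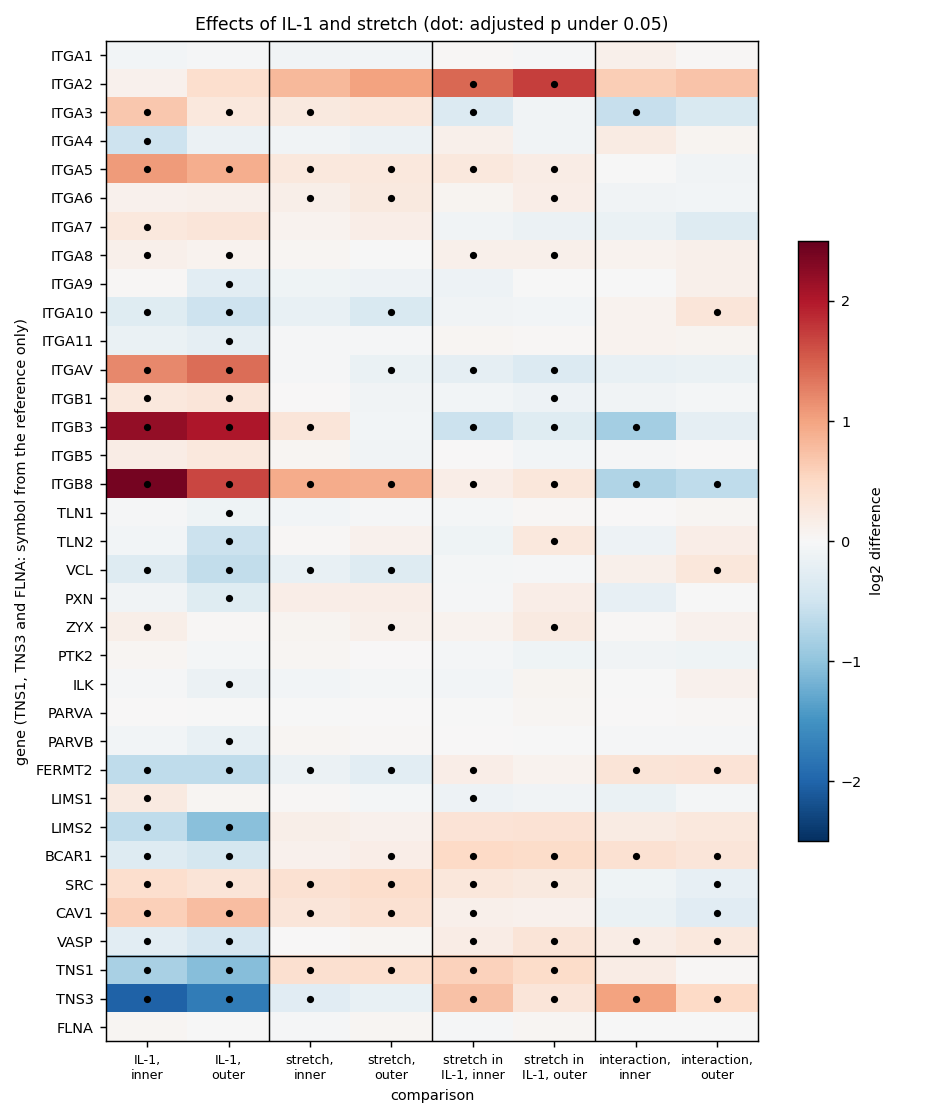
Log2 differences (colour) of the 32 members and, below the line, of TNS1, TNS3 and FLNA in 8 comparisons, with a dot where the adjusted p is under 0.05. ITGB3 and ITGB8 carry the largest rises with IL-1, and ITGB8 also rises with stretch alone.

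Stretch alone asked what loading does without the cytokine, and its effects on these genes were small except for ITGB8. ITGB8 rose 1.90-fold in inner and 1.89-fold in outer cells. SRC, CAV1, ITGA5 and ITGA6 rose in both zones by at most 0.44 on the log2 scale, and VCL and FERMT2 fell in both. In inner cells 7 members rose, 2 fell and 23 did not pass (28.1% of members against 19.9% of all genes, 10.6% up and 9.29% down), and in outer cells 7 rose, 4 fell and 21 did not pass (34.4% against 21.3%, 11% up and 10.3% down). No member passed a fold of 2 (background 1.26% and 1.36%). The median log2 difference was 0.04 in inner and 0.00402 in outer cells, beside -0.00273 and 0.00567 over all genes.

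ITGB8 held 84.9, 72.4 and 69.04 CPM in the 3 stretched inner libraries, all above the 3 at rest (0.92 ± 0.07, adjusted p = 3.21e-10). The stretched outer libraries held 70.5, 75.4 and 67.97 CPM of ITGB8, again all above rest (0.92 ± 0.07, adjusted p = 4e-10). Its partner ITGAV did not rise, with 149, 143 and 144 CPM in inner (-0.02 ± 0.05, adjusted p = 0.836) and 119, 129.8 and 121 CPM in outer cells (-0.16 ± 0.05, adjusted p = 0.0327). The ITGAV call was lost without any 1 of outer stretch replicate 4, outer stretch replicate 6, outer rest replicate 5 or outer rest replicate 6, with log2 differences of -0.16 to -0.13. ITGB3 held 27.4, 23.9 and 26.4 CPM in inner (0.30 ± 0.06, adjusted p = 0.00057) and 20.7, 20.05 and 19.6 CPM in outer cells (-0.08 ± 0.07, adjusted p = 0.473), and only the inner rise passed. The difference between the zones in this effect of stretch on ITGB3 was 0.38 ± 0.09 and did not pass (adjusted p = 0.0562), although it did under 4 of the alternatives.

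The fibronectin receptor subunit ITGA5 held 367, 367 and 402 CPM in stretched inner (0.27 ± 0.06, adjusted p = 0.00175) and 488, 504 and 440.3 CPM in stretched outer cells (0.27 ± 0.06, adjusted p = 0.00144). SRC reached 53.8, 54.5 and 52.9 CPM in inner (0.37 ± 0.05, adjusted p = 2.84e-07) and 67.2, 61.97 and 59.8 CPM in outer cells (0.44 ± 0.05, adjusted p = 6.82e-09). CAV1, whose caveolae flatten when a membrane is pulled, held 609.8, 548 and 536 CPM in inner (0.30 ± 0.05, adjusted p = 7.53e-06) and 429, 390.0 and 424 CPM in outer cells (0.37 ± 0.05, adjusted p = 1.91e-07). For these 3 genes the stretched libraries lay above the libraries at rest in both zones, a separation that 36.1% of all genes had in either direction in inner and 35.8% in outer cells. VCL fell to 604, 552 and 613 CPM in inner (-0.19 ± 0.04, adjusted p = 0.000724) and to 468, 441 and 436 CPM in outer cells (-0.31 ± 0.04, adjusted p = 3.23e-07), and FERMT2 to 191, 181 and 173 (-0.15 ± 0.04) and 188, 194 and 185 CPM (-0.27 ± 0.04). The FERMT2 call was lost without inner stretch replicate 3, with a log2 difference of -0.11.

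Among the other alpha subunits, ITGA10 held 32.1, 31.6 and 32.1 CPM in stretched inner (-0.18 ± 0.07, adjusted p = 0.0518) and 21.3, 25.04 and 23.3 CPM in stretched outer cells (-0.37 ± 0.07, adjusted p = 7.43e-05), so that only the outer fall passed. ITGA3 held 17.9, 18.5 and 20.1 CPM in inner (0.24 ± 0.09, adjusted p = 0.0474) and 6.96, 7.71 and 7.91 CPM in outer cells (0.28 ± 0.11, adjusted p = 0.0698). The ITGA3 call in inner cells was lost in 12 of 24 refits that left out 1 library each (0.19 to 0.28) and under DESeq2. ITGA6, another laminin receptor subunit, rose by 0.15 ± 0.05 in inner and 0.24 ± 0.06 in outer cells (adjusted p = 0.0242 and 0.00238). The ITGA6 call was lost without any 1 of inner stretch replicate 1, inner rest replicate 2 or inner rest replicate 3, with log2 differences of 0.10 to 0.15. The collagen receptor subunits ITGA1 and ITGA11 stayed between -0.09 and -0.03 and passed in neither zone. The other calls were small rises of BCAR1 (0.17 ± 0.06) and ZYX (0.13 ± 0.04) in outer cells. The BCAR1 call was lost without any 1 of outer stretch replicate 5, outer rest replicate 4 or outer rest replicate 5, with log2 differences of 0.12 to 0.16. The ZYX call was lost without any 1 of outer stretch replicate 4, outer stretch replicate 5, outer rest replicate 4 or outer rest replicate 5, with log2 differences of 0.10 to 0.13.

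Marker sums moved with stretch alone too. The chondrocyte-like sum was 2840 to 2980 CPM at rest and 2330 to 2510 CPM with stretch in inner libraries, without overlap, where 4 of 9 markers fell and none rose. In outer libraries it was 1470 to 1600 and 1250 to 1490 CPM, which overlap, and 3 of 9 fell and none rose. The fibroblast-like sum was 96600 to 98200 and 82400 to 93500 CPM in inner libraries and overlapped in outer ones. None of the 10 fibroblast-like markers passed in inner cells, and 1 fell in outer cells. The leukocyte sum was 19.5 to 20.2 and 20.4 to 22 CPM in inner and 36.7 to 40.5 and 40.8 to 46.6 CPM in outer libraries, with none of its 6 markers passing in either zone. Of all genes 19.9% passed in inner and 21.3% in outer cells (9.29% and 10.3% down). Stretched libraries and libraries at rest did not overlap in 36.1% of all genes in inner and 35.8% in outer cells. The part of these marker sums in the changes of the members, such as the falls of ITGA10, VCL and FERMT2, was not tested.

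Stretch in the presence of IL-1 moved ITGB3 and ITGAV down and BCAR1, VASP, SRC and ITGA5 up in both zones. In inner cells 9 members rose, 4 fell and 19 did not pass (40.6% of members against 34.7% of all genes, 16.6% up and 18.1% down). In outer cells 10 rose, 3 fell and 19 did not pass (40.6% against 28.2%, 13.1% up and 15.1% down), and upper-quartile scaling turned this into 15 and 2, where 63.2% of all genes that passed rose, against 46.5% with TMM scaling. The medians were 0.00762 in inner and 0.0390 in outer cells, beside 0.00690 and 0.0135 over all genes. The sole member past a fold of 2 in either zone (background 3.71% and 2.48%) was ITGA2. It met the minimum of 10 reads only in stretched libraries, so nothing is read from its place beside this background.

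ITGB3 held 68.3, 64.95 and 63.9 CPM in the stretched inner libraries with IL-1, all below the 3 with IL-1 alone (-0.54 ± 0.06, adjusted p = 7.43e-10). In outer cells it held 77.1, 63.7 and 69.7 CPM, likewise all below IL-1 alone (-0.30 ± 0.06, adjusted p = 5.72e-05). All of these values remained above those of every library without IL-1. ITGAV held 276, 315 and 280.0 CPM in inner (-0.22 ± 0.05, adjusted p = 0.00132) and 304, 289 and 275 CPM in outer cells (-0.33 ± 0.05, adjusted p = 7.24e-06). ITGB8 went the other way, with 225, 232 and 241 CPM in inner (0.17 ± 0.06, adjusted p = 0.0458) and 150.0, 145 and 147 CPM in outer cells (0.29 ± 0.06, adjusted p = 0.00115). The inner rise of ITGB8 was lost in 11 of 24 refits that left out 1 library each (0.11 to 0.23). ITGA5 held 803, 805 and 760.3 CPM in inner (0.26 ± 0.06, adjusted p = 0.00133) and 872, 770.3 and 909 CPM in outer cells (0.19 ± 0.06, adjusted p = 0.018). In outer cells, the ITGA5 call was lost without any 1 of outer stretch plus IL-1 replicate 4, outer stretch plus IL-1 replicate 6 or outer IL-1 replicate 6, with log2 differences of 0.13 to 0.17. ITGA3 fell in inner cells, though its libraries overlapped, at 20.2, 17.3 and 22.5 CPM (-0.34 ± 0.09, adjusted p = 0.00216), and stood at -0.09 ± 0.11 in outer cells (6.17, 7.34 and 7.44 CPM).

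Of the cytoplasmic proteins, BCAR1 held 97.7, 105 and 103 CPM in inner (0.50 ± 0.06, adjusted p = 1.39e-08) and 81.8, 92.9 and 93.6 CPM in outer cells (0.47 ± 0.06, adjusted p = 1.06e-07), all above the libraries with IL-1 alone (groups were as separate in 44.6% of all genes in inner and 38.5% in outer cells). SRC held 68.1, 67.6 and 66.6 CPM in inner (0.28 ± 0.05, adjusted p = 1.62e-05) and 64.3, 70.5 and 69.6 CPM in outer cells (0.24 ± 0.05, adjusted p = 0.000124). VASP held 166, 159.8 and 168 CPM in inner (0.19 ± 0.04, adjusted p = 0.00027) and 137, 145 and 146 CPM in outer cells (0.31 ± 0.04, adjusted p = 2.25e-07). For VASP and BCAR1 this is a rise from levels that IL-1 had lowered, and for SRC from a level that IL-1 had raised. The mural marker sum was higher with stretch in IL-1 as well, at 1690 to 1960 CPM against 1490 to 1670 CPM with IL-1 alone in outer libraries. In inner libraries it was 2660 to 2810 against 2560 to 2670 CPM, which overlap. Of its 8 markers 3 rose and 1 fell in outer and 2 rose and 1 fell in inner cells (28.2% and 34.7% of all genes passed). The part of this sum in the rises of BCAR1, SRC and VASP was not tested. FERMT2 rose to 144, 149 and 149 CPM in inner cells (0.17 ± 0.04, adjusted p = 0.00092) and held 149, 161 and 155 CPM in outer cells (0.08 ± 0.04, adjusted p = 0.142). CAV1 held 719.9, 765 and 803 CPM in inner (0.13 ± 0.05, adjusted p = 0.0256) and 567, 609.6 and 568 CPM in outer cells (0.10 ± 0.05, adjusted p = 0.112). The CAV1 call was lost without any 1 of inner stretch plus IL-1 replicate 2, inner stretch plus IL-1 replicate 3, inner IL-1 replicate 1 or inner IL-1 replicate 2, with log2 differences of 0.09 to 0.13.

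ITGA2, the classical collagen receptor subunit, was close to the limit of detection and was the member with the largest fold in this comparison. Only stretched libraries, with or without IL-1, reached the minimum of 10 reads. ITGA2 was thus tested only because of the groups where it is high, and its values are given as a description. With IL-1 alone it had 4, 7 and 6 reads in the inner and 6, 3 and 5 reads in the outer libraries, and with stretch plus IL-1 it had 11, 18 and 19 and 15, 14 and 21 reads. The log2 differences were 1.43 ± 0.40 (adjusted p = 0.00513) in inner and 1.73 ± 0.42 (adjusted p = 0.00146) in outer cells. At rest it had 4, 7 and 8 reads in the inner and 2, 4 and 6 in the outer libraries, and stretch alone gave 0.82 ± 0.42 and 1.01 ± 0.49, which did not pass (adjusted p = 0.188 and 0.151). In the reference annotation 67.5% of the exon bases of ITGA2 also belong to MOCS2 on the opposite strand. The library kit keeps the strand, but the strand setting of the counting is not given in the sources used here, so reads of these genes may not be told apart.

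**Figure D3:**
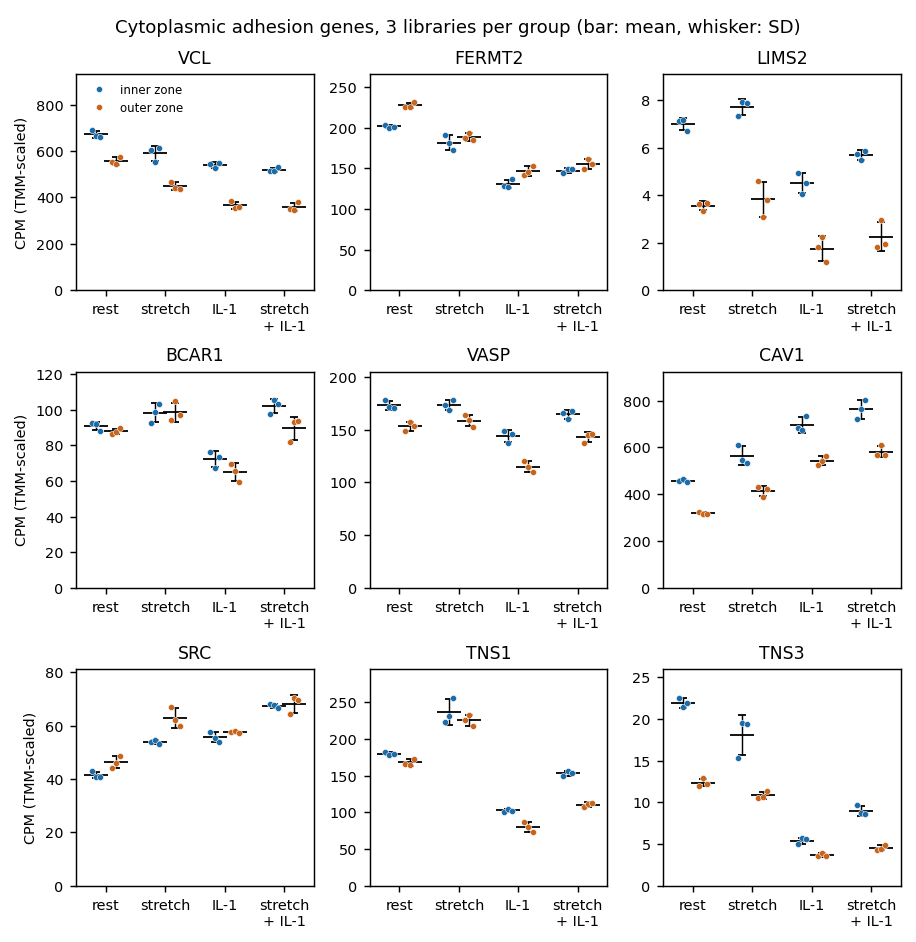
CPM of 9 cytoplasmic adhesion genes in each of 24 libraries (points, 3 per group) by treatment and zone, with the mean (bar) and SD (whisker). VCL, FERMT2, LIMS2, BCAR1, VASP, TNS1 and TNS3 have lower means with IL-1 than at rest in both zones, CAV1 and SRC have higher ones.

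Whether stretch acted differently with and without IL-1 was tested as an interaction, the effect of stretch in IL-1 from which that of stretch alone is taken away. In inner cells it passed for 6 members, 3 above and 3 below 0 (18.8% of members against 19.7% of all genes, 8.66% above and 11% below). The members below 0 were ITGB3 (-0.85 ± 0.08, adjusted p = 2.64e-09), ITGB8 (-0.76 ± 0.09, adjusted p = 1.25e-06) and ITGA3 (-0.58 ± 0.12, adjusted p = 0.000623). For ITGB3 and ITGA3 a rise with stretch alone stood against a fall with stretch in IL-1, while ITGB8 rose in both and by less in IL-1. Above 0 were BCAR1 (0.38 ± 0.08, adjusted p = 0.000495), FERMT2 (0.32 ± 0.06, adjusted p = 5.75e-05) and VASP (0.19 ± 0.06, adjusted p = 0.0147). The VASP call was lost without inner IL-1 replicate 2, with a log2 difference of 0.16. No member passed a fold of 2 in the interaction of either zone (background 2.82% in inner and 1.56% in outer cells). The median over the members was -0.0132, beside 0.00235 over all genes.

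In outer cells the interaction passed for 8 members, 5 above and 3 below 0 (25% against 13.2%, 5.4% above and 7.76% below), or 6 and 2 with upper-quartile scaling, where 56.8% of all genes that passed lay above 0, against 41% with TMM scaling. ITGB8 (-0.63 ± 0.10, adjusted p = 4.51e-05), CAV1 (-0.27 ± 0.07, adjusted p = 0.00318) and SRC (-0.20 ± 0.07, adjusted p = 0.0402) lay below 0, each with a smaller log2 difference for stretch in IL-1 than for stretch alone, of which that of CAV1 in IL-1 did not itself pass. FERMT2 (0.35 ± 0.06, adjusted p = 3.13e-05), ITGA10 (0.30 ± 0.10, adjusted p = 0.0419), BCAR1 (0.30 ± 0.08, adjusted p = 0.00938), VCL (0.29 ± 0.06, adjusted p = 0.000513) and VASP (0.26 ± 0.06, adjusted p = 0.00142) lay above 0. ITGA10 held 30.3, 28.1 and 25.2 CPM in inner and 21.3, 17.4 and 21.1 CPM in outer cells with stretch plus IL-1, and VCL 514, 515 and 529 and 351, 347 and 378 CPM, near their levels with IL-1 alone. The ITGA10 call was lost in 9 and the SRC call in 7 of 24 refits that left out 1 library each, with ranges of 0.24 to 0.39 and -0.24 to -0.15. The members' median was 0.0348, beside 0.000575 over all genes.

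The zones differed in most members, and 5 of the 6 past a fold of 2 at rest were alpha subunits. Inner zone cells at rest held more of all 3 laminin receptor subunits, ITGA6 (3.18-fold), ITGA3 (2.56-fold) and ITGA7 (2.15-fold), and outer cells held more ITGA9 (3.04-fold), ITGA4 (2.46-fold) and ITGB5 (2.10-fold). In all, 12 members were higher and 8 lower in inner cells and 12 did not pass (62.5% of members against 45% of all genes, 20.7% higher and 24.3% lower), and 6 passed a fold of 2 (background 6.71%). The median log2 difference, inner minus outer, was 0.06, beside -0.01 over all genes.

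ITGA6 (ENSSSCG00000015955, chr15:78504108-78591779, plus strand) held 64.4, 62.02 and 61.9 CPM in inner and 20.4, 19.2 and 19.7 CPM in outer libraries at rest (1.67 ± 0.06, adjusted p = 8.28e-23). ITGA3 differed by 1.36 ± 0.10 (adjusted p = 3.73e-13), with the values given with the effect of IL-1. ITGA7 held 4.19, 4.12 and 4.48 CPM in inner and 1.67, 2.38 and 1.89 CPM in outer libraries (1.11 ± 0.13, adjusted p = 1.2e-08). In each of these genes the lowest inner library lay above the highest outer one, and 56.9% of all genes separated the zones in either direction. ITGA9 (ENSSSCG00000011245, chr13:22298497-22655717, plus strand), a receptor subunit for tenascin-C and osteopontin, held 11.14, 9.92 and 11.13 CPM in inner and 30.00, 33.00 and 34.6 CPM in outer libraries (-1.60 ± 0.07, adjusted p = 3.11e-19). Its near relative ITGA4 held 1.46, 1.41 and 1.04 CPM in inner and 3.51, 3.12 and 2.999 CPM in outer libraries (-1.30 ± 0.16, adjusted p = 2.26e-08). ITGB5 (ENSSSCG00000037905, chr13:135468111-135587483, plus strand) held 36.1, 35.9 and 34.6 CPM in inner and 67.1, 81.2 and 76.03 CPM in outer libraries (-1.07 ± 0.12, adjusted p = 5.22e-07). These 3 lay higher in every outer library than in any inner one. Smaller differences were those of LIMS2 (0.97 ± 0.13), ITGA8 (0.81 ± 0.03), CAV1 (0.52 ± 0.05), ITGA11 (-0.59 ± 0.07) and ITGA5 (-0.33 ± 0.06), while ITGB1 (0.04 ± 0.04), PTK2 (-0.03 ± 0.04) and PARVA (0.07 ± 0.03) did not pass. The chondrocyte-like and mural marker sums given above were higher and the leukocyte sum lower in inner than in outer libraries. At rest 5 of 9 chondrocyte-like markers were higher and 1 lower in inner cells, and 5 of 8 mural markers were higher and 1 lower. Of 6 leukocyte markers 2 were lower, of 10 fibroblast-like markers 6 were lower, and none of either was higher. Of all genes 45% passed. The part of these markers in the zone differences of the members was not tested.

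The same zone differences were measured in the other treatments, where 16 members were higher and 7 lower in inner cells with stretch (71.9% of members against 44.1% of all genes, 20.4% higher and 23.7% lower), 19 and 6 with IL-1 (78.1% against 46.8%, 24% and 22.9%) and 16 and 4 with both (62.5% against 48.1%, 23.8% and 24.4%). ITGA6 lay between 1.54 and 1.67 over the 4 treatments, ITGA9 between -1.60 and -1.31 and ITGB5 between -1.14 and -0.95, and all 12 of these values passed. Past a fold of 2 were 6 members with stretch (background 5.58%), 7 with IL-1 (6.88%) and 7 with both (6.96%). The zone difference of ITGB8 went from 0.08 ± 0.07 at rest and 0.08 ± 0.07 with stretch, where it did not pass (adjusted p = 0.424 and 0.337), to 0.78 ± 0.06 with IL-1 and 0.66 ± 0.06 with both.

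**Figure D4:**
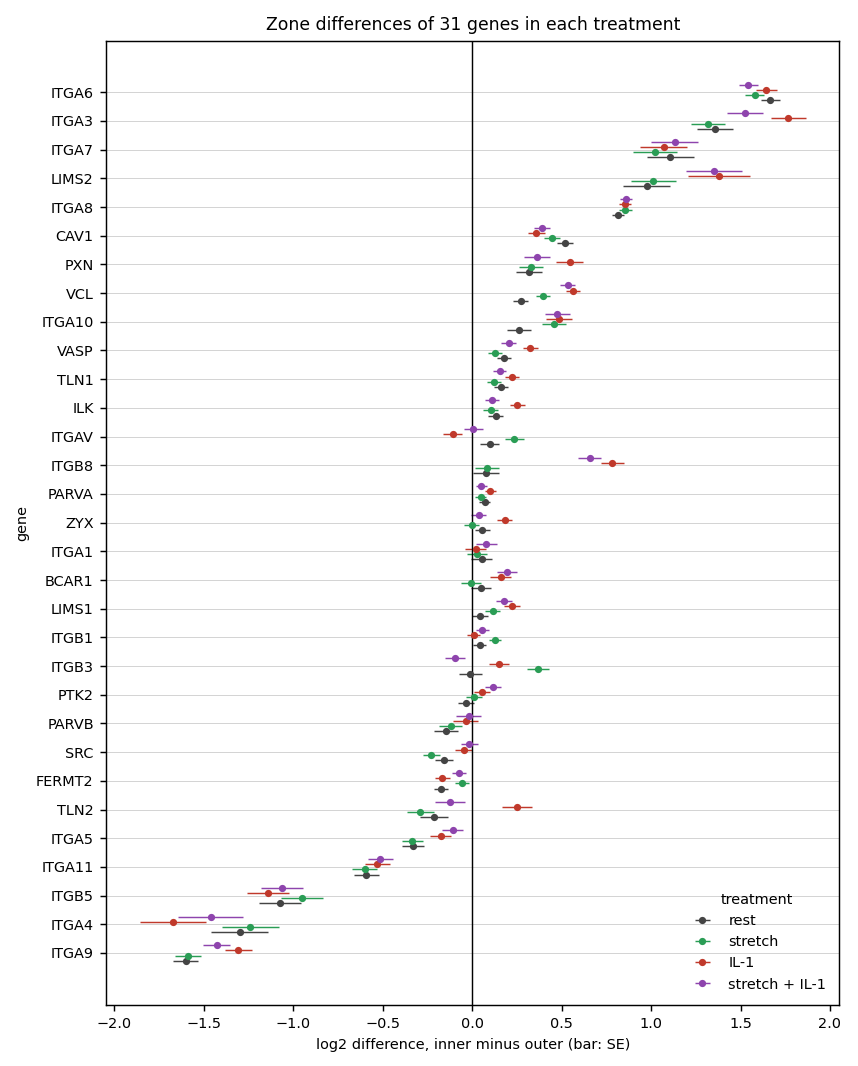
Log2 difference, inner minus outer, of 31 members (ITGA2, at a few reads, is left out) in each of 4 treatments, with bars of 1 SE. ITGA6, ITGA3 and ITGA7 lie to the right of 0 and ITGB5, ITGA4 and ITGA9 to the left in all treatments, and ITGB8 lies near 0 without IL-1 and to the right with it.

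Whether the zones differed in a response was tested as the inner effect minus the outer effect. For IL-1, 3 members passed, all above 0 (9.38% of members against 9.24% of all genes, 5.41% above and 3.82% below), none of them past a fold of 2 (background 0.798%). ITGB8 rose more in inner cells (0.71 ± 0.10, adjusted p = 1.64e-05), VCL fell less there (0.29 ± 0.06, adjusted p = 0.000585), and TLN2, the minor talin, fell in outer cells but stood at -0.06 ± 0.08 in inner cells (0.46 ± 0.11, adjusted p = 0.00616). TLN2 held 12.2, 11.06 and 11.2 CPM at rest and 11.3, 11.01 and 10.7 CPM with IL-1 in inner, and 13.7, 12.99 and 13.2 and 9.85, 8.76 and 9.06 CPM in outer cells. No member passed for stretch alone (0.366% of all genes did) or for stretch in IL-1 (2.33%) with edgeR. At an unadjusted p under 0.05, 4 members passed for stretch alone and 5 for stretch in IL-1. The share of all genes at that threshold was not counted, so nothing can be read from these counts. With DESeq2 adjusted over all genes 1 member (ITGB3) passed for stretch alone and 0 for stretch in IL-1.

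Levels can be compared between genes only per length, and CPM per kilobase of the longest annotated transcript is used for that here, as a description. In inner cells at rest CAV1 (174 ± 2.59 CPM per kilobase, mean ± SD, n = 3), ZYX (137 ± 3.44), VCL (123 ± 2.87), ILK (117 ± 3.24) and ITGB1 (117 ± 1.002) led the 32 members, where VCL and ILK, and ILK and ITGB1, did not differ beyond their spread, and ITGA7 (0.974 ± 0.0440), ITGA4 (0.124 ± 0.0221) and ITGA2 (0.0181 ± 0.00530) came last. ITGA5 stood at 61.8 ± 1.19. In inner cells at rest the beta subunits stood in the order ITGB1, ITGB5 (12.3 ± 0.297), ITGB3 (4.61 ± 0.299) and ITGB8 (4.34 ± 0.190), of which ITGB3 and ITGB8 did not differ beyond their spread. With IL-1, ITGB8 (22.7 ± 1.81) and ITGB3 (21.01 ± 0.637) stood behind ITGB1 (139.8 ± 2.70) and above ITGB5 (14.1 ± 1.66). ITGB8 and ITGB3 again did not differ beyond their spread. In outer cells ITGB5 remained second, at 25.9 ± 2.47 at rest and 30.9 ± 1.64 with IL-1, beside 18.9 ± 0.583 for ITGB3 and 13.2 ± 0.885 for ITGB8 with IL-1. ITGAV, the partner these 3 share, went from 20.7 ± 0.417 to 47.4 ± 2.44 in inner cells and from 19.3 ± 0.795 to 51.1 ± 3.85 in outer cells. Of the collagen receptor subunits ITGA11 stood highest, at 11.05 ± 0.259 in inner and 16.6 ± 0.635 in outer cells at rest, followed by ITGA10 (5.51 ± 0.123 and 4.60 ± 0.277) and ITGA1 (3.95 ± 0.106 and 3.81 ± 0.122).

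**Figure D5:**
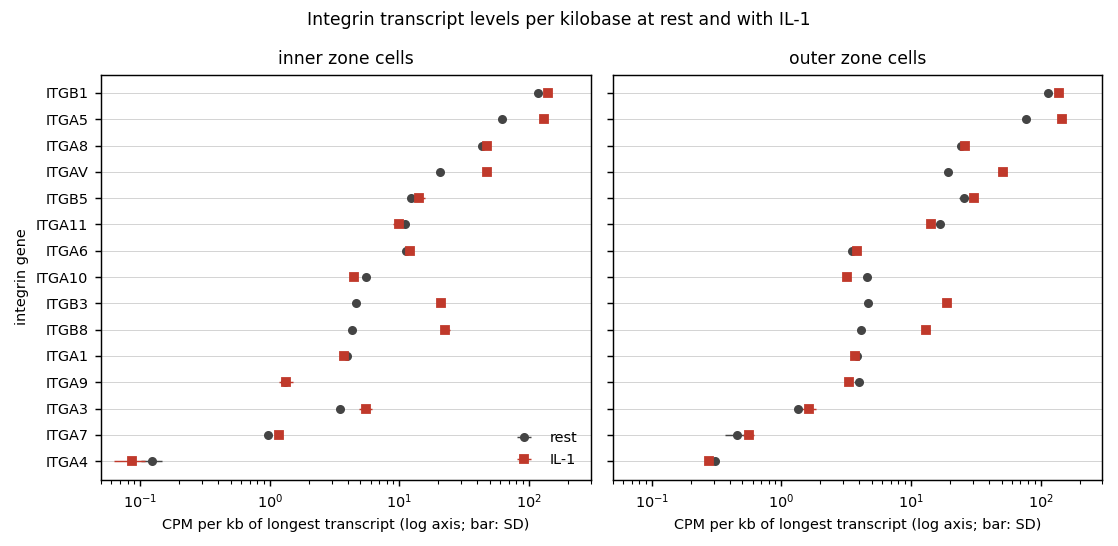
CPM per kilobase of the longest transcript (log axis) of 15 integrin genes at rest (circles) and with IL-1 (squares), as means with SD of 3 libraries, in inner (left) and outer cells (right). ITGB3 and ITGB8 lie below ITGB5 at rest in both zones, and with IL-1 they lie above it in inner and below it in outer cells.

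The 3 listed genes whose symbol comes only from the reference annotation behaved unlike one another. TNS3 (ENSSSCG00000016725, chr18:48960938-49192434, plus strand), a tensin that binds the beta tail and actin, fell from 22.5, 21.4 and 21.8 CPM at rest to 4.97, 5.67 and 5.54 CPM with IL-1 in inner (-2.02 ± 0.09, adjusted p = 1.63e-20) and from 11.97, 12.9 and 12.2 to 3.52, 3.89 and 3.56 CPM in outer cells (-1.76 ± 0.10, adjusted p = 3.68e-17). Stretch in IL-1 brought it to 9.63, 8.65 and 8.54 CPM in inner (0.72 ± 0.10, adjusted p = 3.31e-07) and 4.26, 4.46 and 4.87 CPM in outer cells (0.31 ± 0.12, adjusted p = 0.0482), the outer value just inside the threshold. This effect was above that of stretch alone by 1.004 ± 0.12 in inner and 0.50 ± 0.14 in outer cells (adjusted p = 1.37e-07 and 0.0162). TNS1 (ENSSSCG00000027669, chr15:119948133-120143797, minus strand), another tensin, fell with IL-1 from 182, 178 and 179.5 to 101, 105 and 102 CPM in inner (-0.81 ± 0.05, adjusted p = 1.02e-16) and from 166, 165 and 173 to 87.03, 80.3 and 73.5 CPM in outer cells (-1.07 ± 0.05, adjusted p = 5.83e-20). It rose with stretch alone, by 0.40 ± 0.05 and 0.42 ± 0.05, and with stretch in IL-1, by 0.57 ± 0.05 and 0.46 ± 0.05. FLNA, filamin A, which crosslinks actin and binds integrin tails, was the most abundant listed gene per kilobase at rest (519 ± 5.55 in inner and 489 ± 8.05 in outer cells) and stayed between -0.03 and 0.05 in the 6 comparisons of IL-1 or stretch, none of which passed.

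Other genes of the pathway were read from 3 lists. Of 8 detected integrin subunits outside the list, 1 rose and 2 fell with IL-1 in inner and 1 rose and 3 fell in outer cells (37.5% and 50% against 65.4% and 64.6% of all genes), and none passed with stretch alone (19.9% and 21.3% of all genes did). Of these ITGA2B, known from platelets, fell by 0.34 on the log2 scale with IL-1 in inner cells (adjusted p = 1.08e-09) from 78.04 ± 1.46 CPM at rest. Of 46 detected focal adhesion genes outside the list, 18 rose and 19 fell with IL-1 in inner and 15 rose and 21 fell in outer cells, 80.4% and 78.3% of the list against 65.4% and 64.6% of all genes. SORBS2, a vinculin-binding adaptor, fell (-2.33 ± 0.07 and -3.10 ± 0.09) from 88.04 ± 2.95 CPM in inner and 42.3 ± 1.97 CPM in outer cells at rest. FYN, a kinase of the SRC family, rose by 1.93 ± 0.05 and 1.59 ± 0.05. With stretch alone 8 rose and 7 fell in inner and 10 rose and 11 fell in outer cells (32.6% and 45.7% against 19.9% and 21.3% of all genes), among them SORBS2 (-0.61 ± 0.06 and -0.71 ± 0.07) and KANK1, a talin-binding protein of the adhesion rim (-0.57 ± 0.06 and -0.64 ± 0.06). With stretch in IL-1 the counts were 16 and 4 in inner and 13 and 7 in outer cells (43.5% and 43.5% against 34.7% and 28.2% of all genes), where TGFB1I1, the paxillin relative Hic-5, rose by 0.53 ± 0.06 and 0.53 ± 0.06.

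Of 23 detected integrin ligands, 9 rose and 4 fell with IL-1 in inner and 10 rose and 3 fell in outer cells, 56.5% of the list in each zone against 65.4% and 64.6% of all genes. VCAM1, the ligand of ITGA4, rose by 4.86 ± 0.14 in inner and 4.04 ± 0.13 in outer cells. SPP1, osteopontin, a ligand of ITGAV and ITGA9 pairs, rose by 1.44 ± 0.06 and 1.69 ± 0.06. TGFB1, whose latent complex binds ITGAV pairs, rose with stretch alone by 0.66 ± 0.08 in inner and 0.90 ± 0.08 in outer cells and with stretch in IL-1 by 0.59 ± 0.08 and 0.94 ± 0.09, and fell with IL-1, with log2 differences of -0.65 ± 0.08 in inner and -1.04 ± 0.09 in outer cells. THBS1, thrombospondin-1, rose with stretch in IL-1 by 0.48 ± 0.05 and 0.42 ± 0.05. LAMB1 fell with stretch in IL-1 in inner cells (-0.43 ± 0.04), and SPP1 fell in outer cells (-0.35 ± 0.06). With stretch in IL-1, 2 ligands rose and 5 fell in inner and 3 rose and 4 fell in outer cells. This was 30.4% of the list in each zone, against 34.7% and 28.2% of all genes. With stretch alone 2 ligands rose and 3 fell in inner and 3 rose and 1 fell in outer cells (21.7% and 17.4% against 19.9% and 21.3% of all genes).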

How the data were processed

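Per the labels and methods, the authors trimmed reads with Trim Galore and cutadapt, kept those of 20 nt or longer, mapped them with STAR to Sscrofa11.1, kept reads with a single location and counted them per gene with HTSeq. The deposited counts are whole numbers for 25880 genes. A second deposited table of normalized values adds no library and was not used. Tests of the 24 libraries used edgeR 4.0.16 (R 4.3.3, limma 3.58.1): genes with 10 or more reads in any library, TMM factors, 8 group means, a robust quasi-likelihood fit with 16 residual degrees of freedom and two-sided F-tests, with Benjamini-Hochberg adjustment over 13653 genes in each of 15 comparisons. Members passed at an adjusted p under 0.05 at any fold. The study used DESeq2, with a log2 bound of 1 for its comparisons of groups and none for its interactions. DESeq2 1.42.0 was an alternative, beside RLE and upper-quartile scaling, no filter and the edgeR filter, the groups compared alone, a replicate block and leaving out each library. CPM are TMM-scaled. The SE is the log2 difference divided by the square root of F. Replicates differed beyond counting error (chi-square per degree of freedom 2.43 to 11.4) and no library was merged. The common biological coefficient of variation was 0.0472, and the code was tested on simulated data. Values are named for up to 6 passing members with the largest change per comparison, and for up to 3 passing genes of at least 5 CPM per other list. Members and lists were chosen with earlier results of these data known. Coordinates, transcript lengths and upstream sequence come from RefSeq on Sscrofa11.1, another annotation release than the authors', which holds all 35 listed genes. Reads from overlapping genes may be shared. Beside the overlaps of ITGA2 and ITGAV given above, smaller shares of exon bases overlapped other genes. These were LIMS2 with GPR17 (4.96%), TLN1 with CREB3 (4.56%), ILK with TAF10 (2.84%) and ITGA1 with PELO (1.19%, on the same strand). ZYX (0.766%), TNS1 (0.372%) and VCL (0.0905%) overlapped other genes as well.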

Additional observations from a re-analysis of the deposited data

Results flagged for a closer look

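The response to IL-1 differed between inner and outer cells in 3 members, by a test of the inner effect minus the outer effect. For ITGB8 the difference was 0.71 ± 0.10 (adjusted p = 1.64e-05), with a rise of 2.38 ± 0.07 in inner and 1.68 ± 0.07 in outer cells. For TLN2 it was 0.46 ± 0.11 (adjusted p = 0.00616), with -0.06 ± 0.08 in inner and -0.53 ± 0.08 in outer cells. For VCL it was 0.29 ± 0.06 (adjusted p = 0.000585), with -0.31 ± 0.04 in inner and -0.61 ± 0.04 in outer cells. All 3 passed under every alternative run, DESeq2 and each left-out library included. Groups of 3 are too small for a test of single outlying libraries.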

How the results depend on the processing

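Of 192 passing values of single members, 168 kept their direction and stayed past an adjusted p of 0.05 under every alternative that keeps all libraries, and 153 did so whichever library was left out. With upper-quartile scaling 3 IL-1 values turned, ITGA8 in inner (-0.051) and outer (-0.092) and ZYX in inner cells (-0.026), since that scaling moves all IL-1 differences down. With a fold over 2 as well, the counts of passing members were 4 in each zone for IL-1, 0 in each for stretch and for the interactions, 1 in each for stretch in IL-1, 6 between zones at rest and with stretch, 7 between zones with IL-1 and with both, and 0 for the zone difference in the IL-1 effect. That zone difference passed for 5 members with no filter on low counts and with only the groups compared (ITGAV was added at -0.25 and -0.21, and CAV1 at -0.20 and -0.16), and for 3 to 5 members when 1 library was left out. The zone difference in the stretch effect passed for 1 member, ITGB3 (0.37 to 0.38), with upper-quartile scaling, no filter, DESeq2 and only the groups compared, against 0.38 and an adjusted p of 0.0562, and for 0 to 1 when 1 library was left out, as did that in the effect of stretch in IL-1. All other counts stayed within 1.5 times for both directions summed. By direction they moved more: with upper-quartile scaling 16 in place of 7 members fell with IL-1 in inner, and 20 in place of 13 in outer cells. Same-numbered libraries of different treatments did not deviate together more than others (36 pairs, r from -0.249 to 0.335, median -0.0247, over genes, and -0.351 to 0.311 for 72 pairs with different numbers). The numbers thus gave no sign of pairing. Deviations from means of 3 libraries vary too widely to exclude it. A replicate block kept 101 of 104 calls and moved no count of calls beyond 1.5 times. The calls lost were ITGB8 for stretch in IL-1 in inner cells (0.17) and the outer zone interactions of ITGA10 (0.30) and SRC (-0.20). The cause of these changes was not tested. ITGA2 and LIMS2 have few reads, which limits their precision.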
